A study of Mus musculus with 6 samples.

Results

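The regions described here are places in mouse macrophages that carried C/EBPβ without PU.1 and lay in chromatin acetylated at lysine 9 of histone H3 (H3K9Ace) in macrophages and in 3T3-L1 adipocytes alike. They were chosen by overlaps of the deposited lists: an autosomal C/EBPβ region had to share no base with a macrophage PU.1 region and at least 1 bp with an acetylated region of each cell type. This gave 3265 regions out of 24024 autosomal C/EBPβ regions (24421 on all chromosomes). Of the 11168 autosomal C/EBPβ regions without PU.1 they were 29.2%. Another 1695 were acetylated in macrophages only, and 6208 were not acetylated in macrophages, of which 1074 were acetylated in adipocytes and 5134 in neither cell type. These counts follow from the rule and are given as a description.

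The study mapped proteins on chromatin by ChIP-seq, immunoprecipitation of cross-linked chromatin followed by sequencing. The macrophages were thioglycollate-elicited cells from the peritoneum of male C57BL/6 mice, taken 3 days after 1 ml of a 3% solution was injected and held in culture for 24 h, and they were used for PPARγ, PU.1, C/EBPβ and H3K9Ace. The adipocytes were differentiated 3T3-L1 cells, 1 established line, and were used for PPARγ and H3K9Ace. Each of the 6 libraries is alone in its group, with macrophages of at least 4 animals of unstated age pooled per run and 2 runs joined for macrophage PPARγ, so no value has replicates and every test below compares classes of regions within these lists, not cell populations. C/EBPβ was mapped in macrophages alone, so acetylation in adipocytes says nothing of whether C/EBPβ was bound there. The files used here give no read totals, so the depth is unknown. The files hold no expression values, so the cells were not checked against markers.

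C/EBPβ is a leucine-zipper transcription factor used in myeloid cells, where it works in inflammatory gene control, and in fat cells, where it acts early in differentiation. PU.1, of the ETS family, is a factor needed for the myeloid lineage and opens much of the enhancer repertoire of macrophages. PPARγ is a lipid-activated nuclear receptor that binds DNA with RXR, drives the fat cell programme and also acts in macrophages. Acetylation of H3K9 marks active promoters and enhancers, and runs of it here are called domains, each being 1 region of the deposited list. Whether a given domain is a promoter was not determined, because no gene annotation of the build of the files (mm8) was used here.

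The acetylated domains around these regions were narrower in macrophages than in adipocytes. The macrophage domain had a median width of 2250 bp (95% interval of the median 2200 to 2300), with 80% of the values between 1070 and 4950 bp and extremes of 500 and 22400 bp. The adipocyte domain had a median of 3650 bp (3550 to 3750), with 80% between 1150 and 10250 bp and extremes of 500 and 67400 bp. At least 5 kb was reached by 325 macrophage domains, 9.95% (8.97 to 11.0), and by 1072 adipocyte domains, 32.8% (31.2 to 34.5), counted once for each C/EBPβ region. Ranges after a share are 95% intervals by the Wilson method, which allow for counting error alone and treat regions as independent, although 725 of the 3265 share their macrophage domain with another. Macrophage domains that hold such a region had a median of 2150 bp, against 1450 bp for the other macrophage domains that meet an adipocyte domain. In adipocytes these medians were 3500 bp and 2450 bp. The rule used the overlap with these domains. The width differences between cell types, and between domains with and without such a region, are therefore a description, with no test.

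**Figure D1:**
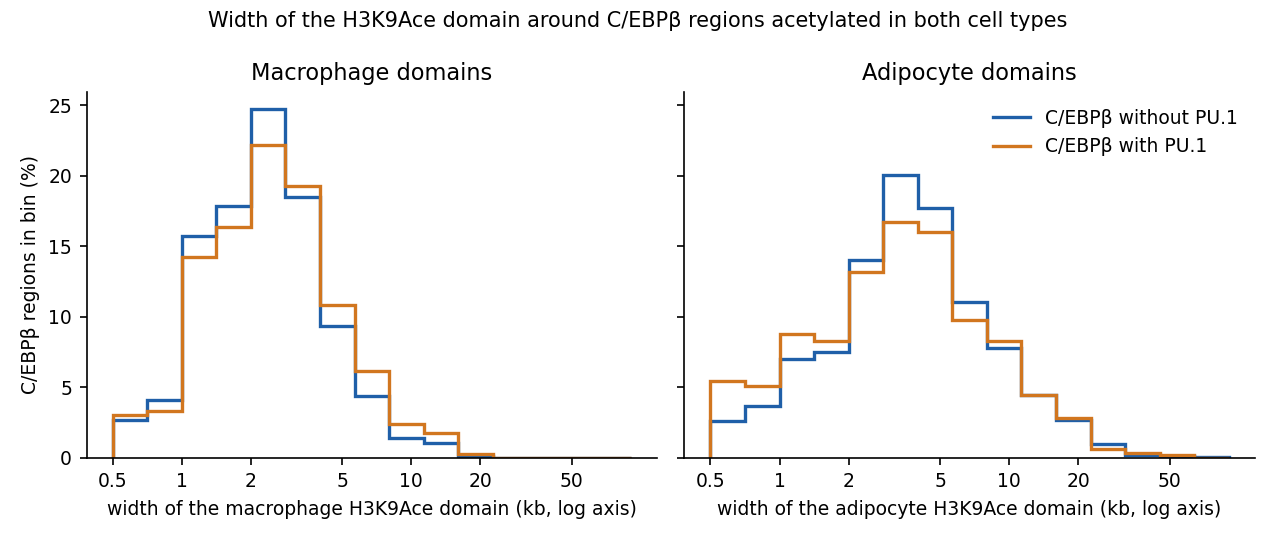
Share of C/EBPβ regions (vertical axis, percent of each class) by the width of the H3K9Ace domain they lie in (horizontal axis, kb, log scale), for macrophage domains on the left and adipocyte domains on the right. The line for the 3265 regions without PU.1 exceeds that for the 3334 regions with PU.1 between 2 and 8 kb in adipocytes and lies below it above 4 kb in macrophages.

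The comparison for width is the set of 3334 C/EBPβ regions that overlap PU.1 and are likewise acetylated in both cell types, since both sets had to meet a domain in each. Without PU.1, the macrophage domains were slightly less often wide: 1946 of 3265 regions, 59.6% (57.9 to 61.3), lay in a domain of at least 2 kb, against 63.0% (61.4 to 64.6) of the regions with PU.1. Odds ratios are given with 95% intervals and with p-values from Fisher's exact test, adjusted by the Benjamini-Hochberg method, and here the ratio was 0.866 (0.783 to 0.957; exact adjusted p = 0.00902 over 4 domain tests). In adipocytes the difference ran the other way, with 2585 regions, 79.2% (77.7 to 80.5), in a domain of at least 2 kb, against 72.4% (70.8 to 73.9) with PU.1. That odds ratio was 1.45 (1.29 to 1.63; exact adjusted p = 4.78e-10). The adipocyte difference was not seen at 5 kb, reached by 32.8% (31.2 to 34.5) without and 32.2% (30.6 to 33.8) with PU.1. The regions without PU.1 were thus less often in adipocyte domains under 2 kb, not more often in very wide ones. The shares at 5 kb were not tested. The macrophage difference did not pass the threshold of 0.05 when the overlap was judged by centres (0.916, exact adjusted p = 0.137) or when 1 region per macrophage domain was kept (0.893, exact adjusted p = 0.0587). It was larger without the regions that had a PU.1 centre within 1000 bp (0.734, exact adjusted p = 8.61e-08). With domains less than 1000 bp apart joined it was also larger (0.761, exact adjusted p = 2.41e-06). At 5 kb the macrophage shares were 9.95% (8.97 to 11.0) without and 14.3% (13.2 to 15.5) with PU.1, not tested.

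Taken region by region, the macrophage domain was the narrower one in most places. It was narrower than the adipocyte domain at 2552 of the 3265 regions, 78.2% (76.7 to 79.5), wider at 674 and of equal width at 39. The median ratio of macrophage to adipocyte width was 0.673, with a middle 50% from 0.435 to 0.932. At 241 regions the macrophage domain was at most 0.2 times as wide as the adipocyte domain, and at 20 it was at least 5 times as wide. Among the C/EBPβ regions with PU.1 the adipocyte domain was the wider one in 67.5% (65.8 to 69.0). The odds ratio of regions without over regions with PU.1 was 1.73 (1.54 to 1.93; exact adjusted p = 3.33e-22 over 5 tests added after seeing the data). This comparison was not repeated within quartiles of C/EBPβ region width. Adipocyte H3K9Ace covers more of the genome in these lists, with 53.05 Mb under macrophage and 100.1 Mb under adipocyte regions. Whether this coverage bears on the difference between the classes was not tested.

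The same tilt appears in how the domains nest. At 2090 regions, 64.0% (62.4 to 65.6), the macrophage domain lay wholly within the adipocyte domain, against 52.5% (50.8 to 54.2) of the regions with PU.1. The adipocyte domain lay within a larger macrophage domain at 389 regions, 11.9%, against 681 of those with PU.1, 20.4%. Another 784 pairs overlapped in part, and at 2 regions the C/EBPβ region met a separate domain in each cell type with no base in common. The paired macrophage domain covered a median of 64.2% of the adipocyte domain. Other macrophage domains within the same adipocyte domain were not counted in this share. The centres of the paired domains were a median of 425 bp apart. Widths in macrophages and adipocytes went together only loosely, with a Spearman correlation of 0.487 across the 3265 regions, which share domains and are not independent.

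C/EBPβ centres lay toward the middle of the domains rather than at their edges. The rule required overlap with a domain in both cell types. A region near the edge of one domain can miss the other, and was then left out. The central placement is therefore a description, with no test against an even spread. In macrophages 2018 regions, 61.8% (60.1 to 63.5), had their centre in the middle 50% of the domain length, and in adipocytes 1997 did, 61.2% (59.5 to 62.8). With the domain divided into 10 equal bins, 4.15% and 4.56% of the centres inside a macrophage domain fell in the outermost bins, against 13.6% in the sixth. In adipocytes the outermost bins held 4.20% and 5.08%. The centre was a median of 668.5 bp from the nearer edge of the macrophage domain and 1011.5 bp from that of the adipocyte domain. It was outside the macrophage domain at 129 regions and outside the adipocyte domain at 97, which overlapped by a part of their width. The sides were even, with 1596 regions below and 1668 above the midpoint of the macrophage domain.

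**Figure D2:**
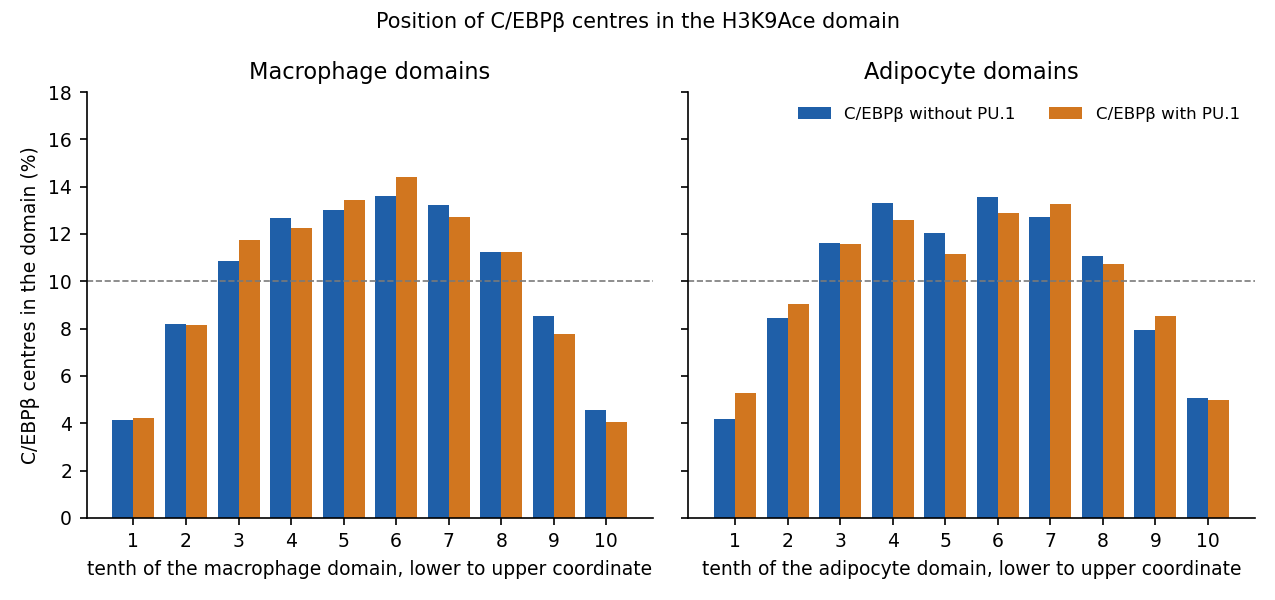
Share of C/EBPβ centres (vertical axis, percent of the centres inside the domain) in each of 10 equal bins of the H3K9Ace domain from its lower to its upper coordinate (horizontal axis), with regions without PU.1 in blue and regions with PU.1 in orange, for macrophage domains on the left and adipocyte domains on the right. The dashed line at 10% is the share of the length in each bin; the outermost bins hold 4.15% to 5.08% of the centres without PU.1.

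The share of central positions differed with the width of the domain. In macrophage domains under 1000 bp, 48.4% of the centres (41.9 to 55.0, n = 221) lay in the middle 50%. This share was 61.0% from 1000 to 2000 bp and 66.5% (64.0 to 68.9, n = 1412) from 2000 to 4000 bp. It was lower again beyond, at 57.5% from 4000 to 8000 bp and 51.8% (41.3 to 62.1, n = 85) above 8000 bp. In adipocyte domains the shares were 43.0%, 59.2%, 66.9%, 62.8% and 55.1% over the same bins, again highest from 2000 to 4000 bp. The distance to the domain midpoint grew with width throughout, from a median of 200.5 bp in the narrowest macrophage domains to 2736.5 bp in the widest.

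C/EBPβ regions without and with PU.1 did not differ detectably in their place in the macrophage domain. The middle 50% held 61.8% of the regions without and 62.1% of those with PU.1, an odds ratio of 0.986 (0.891 to 1.09; exact adjusted p = 0.780). In the adipocyte domain the regions without PU.1 were more central, 61.2% against 57.9% (56.2 to 59.6), with an odds ratio of 1.15 (1.04 to 1.27; exact adjusted p = 0.00902). This adipocyte difference did not pass the threshold when centres defined the overlap (odds ratio 1.10), with 1 region per macrophage domain (1.11) or with nearby domains joined (1.07). The classes also differed in width, with 207 regions without and 351 with PU.1 in adipocyte domains under 1000 bp. There the central shares without and with PU.1 were 43.0% and 39.3%, and from 1000 to 2000 bp 59.2% and 59.1%. They were 66.9% and 62.9% from 2000 to 4000 bp, 62.8% and 60.5% from 4000 to 8000 bp, and 55.1% and 55.4% above. The difference at equal width was not tested. C/EBPβ regions without PU.1 that were acetylated in macrophages only are a further point of reference: 47.1% (44.7 to 49.5) of them were in the middle 50% of a macrophage domain whose median width was 1200 bp.

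Most of the domains carried a single such region. The 3265 regions lay in 2874 macrophage domains, of which 2540 held 1, 290 held 2 and 44 held 3 or more, and in 2826 adipocyte domains, of which 2457 held 1. Macrophage domains with 1 region had a median width of 2050 bp, those with 2 had 3100 bp and those with 3 or more 4075 bp. The fullest macrophage domain, at chr13:52988601-52995350 (mm8, as all coordinates here), held 6. Its first, at 52988712 to 52988891, lay 201 bp from the lower edge and was the only one of the 6 with PPARγ, in adipocytes. The others of that domain lay between 52989115 and 52994392. The next, at chr10:67669751-67676450, held 5, between 67671787 and 67675904, and none of them carried PPARγ in the final lists.

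The absence of PU.1 applied to the C/EBPβ region, not to the domain. At 1428 regions, 43.7% (42.0 to 45.4), PU.1 was bound elsewhere in the same macrophage domain, and these domains were wider, with a median of 3100 bp against 1850 bp for domains without PU.1. The nearest PU.1 centre was a median of 2257.5 bp away. It lay within 1000 bp at 979 regions, 30.0%, and beyond 20 kb at 367, 11.2%. Regions without PU.1 that were acetylated in macrophages only had PU.1 nearer, at a median of 1813.5 bp, and those not acetylated in macrophages further off, at 5345 bp. The regions acetylated in macrophages only nevertheless had PU.1 in their macrophage domain less often, at 38.4% (36.1 to 40.7). Their domains had a median width of 1200 bp. The rule used PU.1 overlap, so these distances and shares are a description.

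PPARγ was rare at these regions in either cell type. The final macrophage PPARγ list met 104 of the 3265 regions, 3.19% (2.64 to 3.84), where it met 1200 of all 24024 autosomal C/EBPβ regions, 5.0%. The final adipocyte list met 91 regions, 2.79% (2.28 to 3.41), where it met 1.58% of all autosomal C/EBPβ regions. PPARγ was thus less frequent than over the whole C/EBPβ list in macrophages and more frequent in adipocytes. The whole list is an unlike reference, because the rule required acetylation in both cell types and left out regions with PU.1. Of its 24024 regions, 12250 lay in a macrophage domain, 8365 lay in an adipocyte domain and 12856 overlapped PU.1. Macrophage PPARγ was at 8.52% of the regions with PU.1 acetylated in both cell types. Without PU.1 it was at 3.78% of regions acetylated in macrophages only and 2.08% of those not acetylated in macrophages. The lower macrophage share thus does not hold against all other regions without PU.1. In the longer deposited lists, with 18470 macrophage and 12430 adipocyte regions, PPARγ was at 479 regions, 14.7% (13.5 to 15.9) against 19.6% of all C/EBPβ regions, in macrophages. In adipocytes it was at 499, 15.3% (14.1 to 16.6) against 7.86%. These longer lists are unlike, with a median region width of 213 bp in macrophages and 899 bp in adipocytes. They cover 4.74 Mb and 10.96 Mb, so their shares cannot be set side by side between cell types.

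Macrophage PPARγ was less frequent without PU.1 at the C/EBPβ region than with it. It was at 3.19% of the regions without PU.1, against 8.52% (7.62 to 9.51, 284 of 3334) of those with PU.1 that were acetylated in both cell types. The odds ratio was 0.353 (0.278 to 0.447; exact adjusted p = 4.74e-20 over 6 PPARγ tests). The C/EBPβ regions without PU.1 were also narrower, with a median of 268 bp against 334 bp, and within quartiles of that width the odds ratio was 0.465 (0.367 to 0.590). No difference was detectable between the 3.19% at these regions and the 3.78% (2.97 to 4.79) at the 1695 regions acetylated in macrophages only. Its odds ratio was 0.838 (0.605 to 1.17; exact adjusted p = 0.339). With the longer list that comparison passed the threshold at 14.7% against 18.3%, an odds ratio of 0.768 (0.655 to 0.902; exact adjusted p = 0.00127). The doubly acetylated regions carried macrophage PPARγ more often than the regions not acetylated in macrophages, 3.19% against 2.08% (1.75 to 2.46), with an odds ratio of 1.55 (1.18 to 2.03; exact adjusted p = 0.00256). In the parts of that class macrophage PPARγ was at 1.96% (1.28 to 2.97) where acetylated in adipocytes only and 2.10% (1.75 to 2.53) where acetylated in neither. The excess did not pass the threshold within quartiles of C/EBPβ region width, at 1.26 (0.960 to 1.65; Cochran-Mantel-Haenszel adjusted p = 0.146), and with no PU.1 centre within 1000 bp, at 1.35 (exact adjusted p = 0.150).

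Adipocyte PPARγ was more frequent where the chromatin was also acetylated in adipocytes than where it was acetylated in macrophages only. It was at 2.79% of the doubly acetylated regions, against 5 of the 1695 regions acetylated in macrophages only, 0.295% (0.126 to 0.689). The odds ratio was 9.69 (3.99 to 30.6; exact adjusted p = 2.97e-11), and it ranged from 6.47 to 10.2 over the alternatives tried. The 2.79% compares with 3.03% (2.50 to 3.67) at C/EBPβ regions with PU.1 acetylated in both cell types. The odds ratio of regions without over regions with PU.1 was 0.918, and its interval of 0.681 to 1.24 spans differences in either direction (exact adjusted p = 0.608). It also compares with 1.90% (1.59 to 2.27) at regions not acetylated in macrophages, for which the odds ratio was 1.48 (1.11 to 1.97; exact adjusted p = 0.00954). That class is mixed: adipocyte PPARγ was at 79 of its 1074 regions acetylated in adipocytes only, 7.36% (5.94 to 9.07), and at 39 of its 5134 regions acetylated in neither cell type, 0.760% (0.556 to 1.04). The 2.79% at the doubly acetylated regions lies between these shares, outside both intervals, so the odds ratio of 1.48 depends on the mixture. These 2 shares were split after seeing the data and not tested. The excess over the whole class did not pass the threshold under 4 of 6 alternatives. Its lowest value was 1.17, where regions with a PU.1 centre within 1000 bp were left out, and its highest was 2.28, in the longer adipocyte list.

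**Figure D3:**
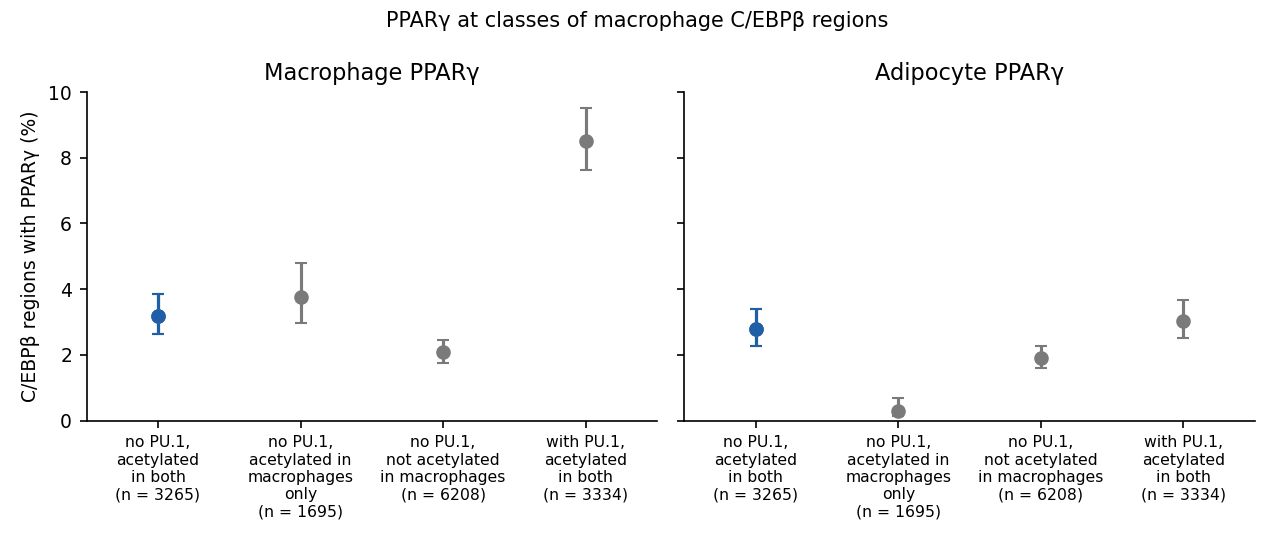
Share of C/EBPβ regions that overlap a final PPARγ region (vertical axis, percent) for 4 classes of autosomal macrophage C/EBPβ regions (horizontal axis, number of regions in brackets), with macrophage PPARγ on the left and adipocyte PPARγ on the right; points are shares and bars 95% Wilson intervals. The doubly acetylated regions without PU.1, in blue, stand at 3.19% and 2.79%, below the class with PU.1 (8.52%) on the left and above the class acetylated in macrophages only (0.295%) on the right.

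PPARγ in macrophages and PPARγ in adipocytes went together. Of the 157 regions with PPARγ in a final list, 38 had it in both cell types, 66 in macrophages only and 53 in adipocytes only. The regions with adipocyte PPARγ carried macrophage PPARγ in 38 of 91 cases, 41.8% (32.2 to 52.0), against 66 of the 3174 without it, 2.08% (1.64 to 2.64). The odds ratio was 33.8 (20.1 to 56.0; exact adjusted p = 7.19e-35), a test added after seeing the data, and in the longer lists it was 4.37 (3.49 to 5.47). Among C/EBPβ regions with PU.1 acetylated in both cell types the same odds ratio was 22.6 (14.5 to 35.5), and the intervals overlap. The regions bound in macrophages only and in adipocytes only did not differ detectably in number, exact McNemar test, adjusted p = 0.339.

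The PPARγ regions met here were close to typical for their lists, as the authors' values give them. The 101 macrophage PPARγ regions involved, 5.25% of the autosomal list, had a median fold of 6.47 over the control of the peak caller (5.04 to 19.8) and a median peak height of 15. The rest of that list had medians of 6.20 and 13. The 92 adipocyte regions, 3.52% of their list, had a median fold of 6.63 (5.09 to 17.9) and a median height of 12, against 6.38 and 12 for the rest. Regions with PPARγ in both cell types had a median macrophage fold of 6.92 and height of 19.5, against 6.18 and 13.5 where PPARγ was in macrophages only. Their adipocyte median fold was 7.53 and height 16, against 6.37 and 11 where it was in adipocytes only. Where the regions overlapped, PPARγ and C/EBPβ centres lay a median of 80 bp apart in macrophages and 59 bp apart in adipocytes. The required overlap keeps these distances short, so they are a description. Of the 104 regions with macrophage PPARγ, 53.8% had its centre within 100 bp of the C/EBPβ centre, and of the 91 with adipocyte PPARγ, 74.7%. The final PPARγ lists differ in median region width, 315 bp in macrophages and 260 bp in adipocytes. Whether this bears on the difference between these shares was not tested.

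Regions with adipocyte PPARγ lay in domains that were wide in adipocytes and narrow in macrophages. Where PPARγ was in adipocytes only, the median domain width was 1650 bp in macrophages and 4300 bp in adipocytes, and where it was in both cell types 1975 bp and 4825 bp. Where it was in macrophages only these medians were 2225 bp and 3050 bp, and at the 3108 regions without PPARγ 2250 bp and 3650 bp. The adipocyte domain was the wider one at 84 of the 91 regions with adipocyte PPARγ, 92.3% (85.0 to 96.2), against 77.8% (76.3 to 79.2) of those without it. The odds ratio was 3.43 (1.58 to 8.84; exact adjusted p = 0.000716), again a test added after seeing the data, and in the longer lists the odds ratio was 2.13. With macrophage PPARγ the adipocyte domain was the wider one at 76.0%, against 78.2% without it, an odds ratio of 0.879 (0.550 to 1.45; exact adjusted p = 0.549). In the longer lists that odds ratio was 0.651 (0.521 to 0.816; exact adjusted p = 0.00021).

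**Figure D4:**
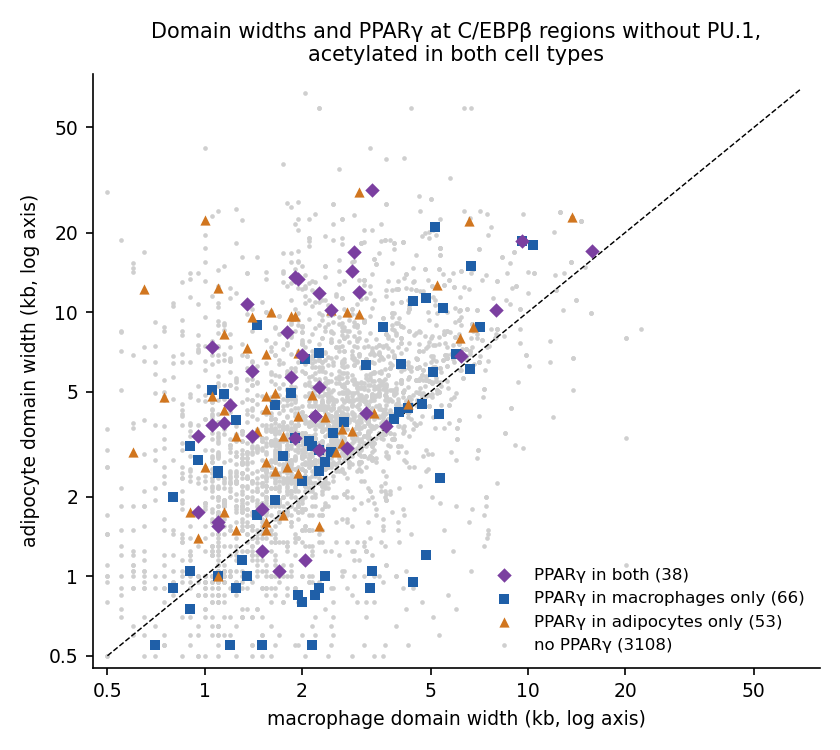
Width of the adipocyte domain (vertical axis, kb, log scale) against width of the macrophage domain (horizontal axis, kb, log scale) for the 3265 C/EBPβ regions, 1 point each, coloured by PPARγ in the final lists; the dashed line marks equal widths. Of the 91 regions with PPARγ in adipocytes, 84 lie above the line, against 2468 of the other 3174.

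The same holds across quartiles of width, cut by rank, as a description. From the narrowest to the widest quartile of macrophage domains, adipocyte PPARγ was at 3.92% (2.79 to 5.48), 3.55%, 2.21% and 1.47% (0.843 to 2.55) of the regions, and the intervals of the outer quartiles do not overlap. Across quartiles of adipocyte domain width it went the opposite way, from 1.96% (1.21 to 3.16) to 4.41% (3.20 to 6.05). Macrophage PPARγ followed neither width steadily, with 4.04% in the narrowest and 3.19% in the widest macrophage domains. By the width of the C/EBPβ region it was at 1.71% (1.02 to 2.86) of the narrowest quartile and 6.13% (4.68 to 7.99) of the widest. Adipocyte PPARγ at those quartiles was 2.08% (1.30 to 3.31) and 4.17% (3.00 to 5.77). The C/EBPβ list gives no height or fold, and whether its region widths stand for the strength of binding was not tested. By position in the macrophage domain, macrophage PPARγ was at 3.37% (2.67 to 4.25) of the regions in the middle 50% and at 2.89% (2.09 to 3.97) of the outer ones. Adipocyte PPARγ was at 3.22% (2.54 to 4.08) and 2.09% (1.43 to 3.04), and both pairs of intervals overlap.

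**Figure D5:**
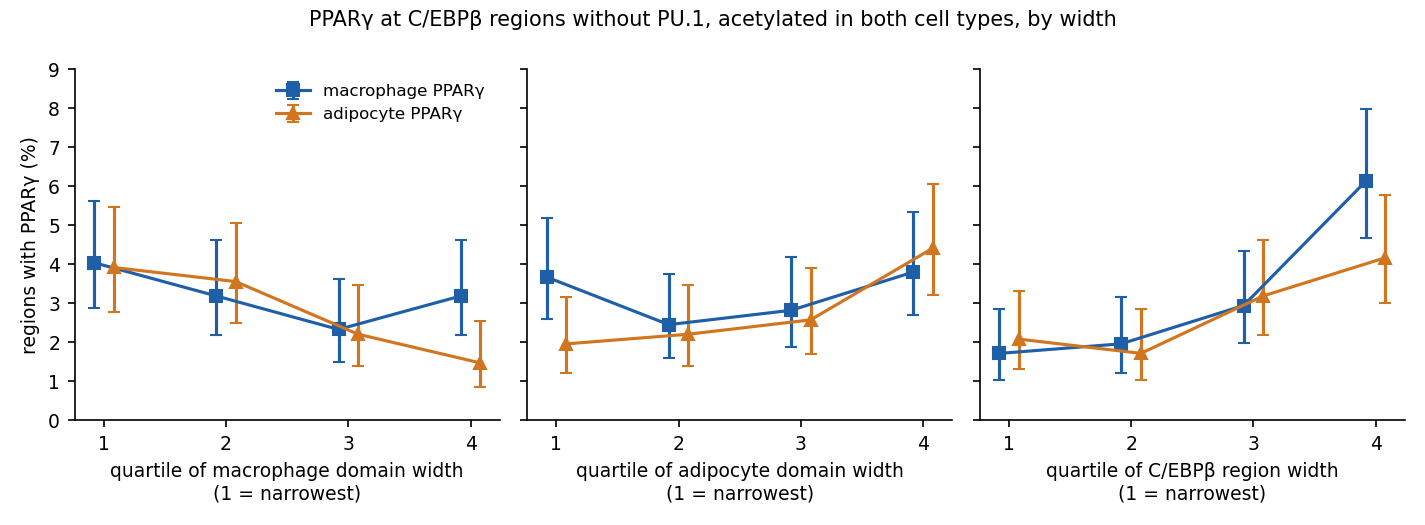
Share of the 3265 regions with macrophage PPARγ (blue squares) and adipocyte PPARγ (orange triangles; vertical axis, percent, bars 95% Wilson intervals) by quartile of macrophage domain width, adipocyte domain width and C/EBPβ region width (horizontal axes, 1 narrowest to 4 widest). Adipocyte PPARγ falls to 1.47% in the widest macrophage domains and reaches 4.41% in the widest adipocyte domains, while macrophage PPARγ reaches 6.13% at the widest C/EBPβ regions.

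PPARγ also lay in the same domain without touching the C/EBPβ region. In macrophages 120 regions, 3.68% (3.08 to 4.38), had PPARγ elsewhere in their domain only, and in adipocytes 196, 6.00% (5.24 to 6.87). Over all autosomal C/EBPβ regions in a domain of the cell type, these shares were 3.98% (3.64 to 4.34) in macrophages and 6.36% (5.86 to 6.90) in adipocytes, close to those here. With PPARγ at the C/EBPβ region included, 223 regions, 6.83%, lay in a macrophage domain with PPARγ, against 10.5% of all C/EBPβ regions in a macrophage domain. In adipocytes 287 did, 8.79%, against 10.1%. Both references include C/EBPβ regions with PU.1, which the rule left out. Among those with PU.1 acetylated in both cell types, the shares were 13.6% (12.4 to 14.8) in macrophages and 9.75% (8.79 to 10.8) in adipocytes. These differences were not tested. Macrophage PPARγ at the C/EBPβ region was found at 3.92% (3.03 to 5.06) of the regions with PU.1 elsewhere in the macrophage domain and at 2.61% (1.98 to 3.45) of those without. Adipocyte PPARγ was at 2.73% and 2.83%.

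The regions with PPARγ in both cell types and the best joint rank of fold show how varied their domains are. First came chr17:24206593-24206790, with folds of 16.6 in macrophages and 12.25 in adipocytes. It sat 68.5% of the way along a macrophage domain of 2250 bp and 82.6% along an adipocyte domain of 11850 bp, with the nearest PU.1 centre 15129.5 bp away. At chr2:144059918-144060458 the folds were 18.4 and 12.0, and the domains nearly coincided, at 2750 bp in macrophages and 3050 bp in adipocytes. The region chr5:17388456-17388942 followed with folds of 15.6 and 9.23, in a macrophage domain of 1700 bp and a smaller adipocyte domain of 1050 bp. At chr7:18827966-18828354, the adipocyte fold was the higher one, 8.83 in macrophages against 13.3 in adipocytes, with domains of 1150 bp and 3800 bp.

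The other regions of that group had macrophage domains from 1900 to 9600 bp and adipocyte domains from 3350 to 29100 bp. Chromosome 15 held 2 of them, at 38243751 to 38243913 (folds 10.5 and 9.64) and at 91007766 to 91007996 (19.8 and 7.64). On chromosome 7 the region at 79654441 to 79654804 (8.23 and 10.6) lay in a macrophage domain of 1900 bp inside an adipocyte domain of 13600 bp. The region at 141308217 to 141308443 (9.78 and 9.06) lay in 3300 bp inside 29100 bp. The region chr2:90995807-90996149 (10.1 and 8.12) was close to the middle of both domains, at 49.6% and 53.3% of their length. The region chr6:34793046-34793318 (6.81 and 13.3) was close to the lower edge of both, at 9.18% and 5.01%.

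Among regions with PPARγ in macrophages only, the highest folds were at chr4:144227221-144227549 (16.9), chr11:29708490-29709104 (16.6) and chr1:192930912-192931670 (15.5). The region chr4:86184279-86184630 (14.7) and chr16:24976979-24977509 (12.2) followed. Their macrophage domains ran from 1100 to 6000 bp and their adipocyte domains from 1000 to 6950 bp. Among regions with PPARγ in adipocytes only, chr2:163163065-163163336 led with a fold of 17.9. Its macrophage domain of 1400 bp lay inside an adipocyte domain of 9550 bp, and the nearest PU.1 centre was 37742 bp away. The next were chr5:101100970-101101320 (11.7), chr2:145524990-145525148 (10.9), and chr6:113453176-113453368 (8.83) and 21948983 to 21949196 (8.52). All 5 of these lay in an adipocyte domain wider than the macrophage one.

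From each of the 3 widest domains of either cell type 1 region is named, and none of those named overlapped a PPARγ region of the final lists. In macrophages these were chr7:142197400-142197715, in a macrophage domain of 22400 bp and an adipocyte domain of 8650 bp, chr4:144163137-144163287 (20150 bp and 8000 bp) and chr2:44936685-44937091 (15750 bp and 17050 bp). The widest adipocyte domains held chr6:52088382-52088590 (2050 bp in macrophages and 67400 bp in adipocytes), chr14:24294655-24295005 (6650 bp and 59050 bp) and chr10:79564881-79565256 (1000 bp and 41700 bp). The first of these lay 2.43% of the way along its adipocyte domain, near the lower edge. Some of these domains held further regions of the set: the macrophage domain of 15750 bp held 3, of which 1 carried PPARγ in both cell types, and the adipocyte domain of 59050 bp held 5, all without PPARγ.

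At the limit of the rule, the smallest overlap with a macrophage domain was 1 bp, at chr4:9601784-9602101. With an adipocyte domain it was 3 bp, at chr4:11891911-11892253. Just outside, the region at chr2:3250301-3250498 abutted a macrophage domain without overlap, as the region at chr4:120423451-120423645 abutted an adipocyte domain. Of the 3265 regions, 328 reached past an edge of their macrophage domain and 254 past an edge of their adipocyte domain.

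The regions were spread over all 19 autosomes, unevenly relative to the C/EBPβ regions without PU.1. They made up 37.3% (34.1 to 40.8) of those on chromosome 11 and 36.2% (31.5 to 41.1) on chromosome 19, against 22.4% (19.2 to 25.9) on chromosome 13 and 22.5% (19.7 to 25.6) on chromosome 1. Among the autosomes, chromosome 6 had the highest PPARγ shares at these regions, with 14 of 216 in macrophages, 6.48% (3.90 to 10.6), and 16 in adipocytes, 7.41% (4.61 to 11.7). Adipocyte PPARγ was also frequent on chromosome 6 outside the set, at 7.02% of the regions with PU.1 acetylated in both cell types and at 4.35% (3.41 to 5.54) of all C/EBPβ regions there, and macrophage PPARγ was at 5.96% (4.85 to 7.32) of all. Without chromosome 6 the odds ratio of adipocyte PPARγ against the class acetylated in macrophages only was 10.2.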

How the data were processed

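Reads of 36 bp from 6 libraries were placed on mm8 by ELAND, per the labels' protocols, where the best match was unique and had at most 2 mismatches. For the peak caller, settings and control were not given in the sources used here. For PPARγ the authors deposited regions with a fold over control (ratio), a peak height (signal, not scaled for depth as far as stated) and a false discovery rate read as percent, per the file headers. The C/EBPβ, PU.1 and H3K9Ace lists were used as positions only, and rows repeated in the adipocyte H3K9Ace list were counted once. A record field names PPARγ for all 6 libraries, and their titles and antibodies were followed instead. No replicates exist, and intervals cover counting error only.

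Regions met when they shared at least 1 bp. The domain of a C/EBPβ region was the H3K9Ace region of largest overlap. Shares of regions were compared with Fisher's exact test and adjusted by the Benjamini-Hochberg method over 6 PPARγ tests, 4 domain tests and 5 tests added after seeing the data. Regions treated as independent include neighbours. Members and lists were chosen with earlier results of these data known. Regions named are the 10 best by mean rank of both folds among those with PPARγ in both cell types, the 5 of highest fold in each single cell type, the 3 in the widest domains of each cell type, the 2 fullest macrophage domains and those at the limit of the rule. Alternatives were the centre in place of the overlap, no PU.1 centre within 1000 bp, longer PPARγ lists (in adipocytes 3 datasets combined), 1 region per macrophage domain, strata of C/EBPβ width by the Cochran-Mantel-Haenszel test, no chromosome 6 and joined domains. Functions were tested on simulated data. Python 3.11.15, numpy 2.4.6, pandas 2.3.3, scipy 1.17.1, statsmodels 0.14.6 and matplotlib 3.10.9 were used. No genome or annotation of mm8 was used here, so no genes are named and no sequences printed.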

Additional observations from a re-analysis of the deposited data

How the results depend on the processing

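Of 94 alternatives over all results, 73 were classed as unchanged, which for the tests means the same direction and side of the threshold. These 73 include 3 counts of regions chosen, which have no threshold. The 94 also include 4 median widths, which have none either and moved. The causes of the other changes were not tested. With centres in place of overlaps, the odds ratio of adipocyte PPARγ against regions not acetylated in macrophages was 1.34, that of the middle of the macrophage domain changed sides to 1.02, that of the middle of the adipocyte domain was 1.10 and that of macrophage domains of at least 2 kb was 0.916, and none passed the threshold. With no PU.1 centre within 1000 bp, macrophage and adipocyte PPARγ against regions not acetylated in macrophages gave 1.35 and 1.17, below the threshold, and the wider adipocyte domain with against without macrophage PPARγ gave 1.09 in place of 0.879. With 1 region per macrophage domain, adipocyte PPARγ against regions not acetylated in macrophages gave 1.33, the middle of the adipocyte domain 1.11 and macrophage domains of at least 2 kb 0.893, each short of the threshold. Within quartiles of C/EBPβ width, macrophage and adipocyte PPARγ against regions not acetylated in macrophages gave 1.26 and 1.35, below the threshold, and adipocyte PPARγ against regions with PU.1 gave 1.14 in place of 0.918. With the longer PPARγ lists, macrophage PPARγ against regions acetylated in macrophages only (0.768) passed the threshold. So did the wider adipocyte domain with against without macrophage PPARγ (0.651). The macrophage minus adipocyte share of PPARγ was -0.613 percentage points in place of 0.398. Those lists differ in median region width, 213 bp in macrophages and 899 bp in adipocytes. With domains less than 1000 bp apart joined, the middle of the adipocyte domain gave 1.07, short of the threshold, and the median widths were 2650 bp in macrophages and 4900 bp in adipocytes. With each domain counted once, the medians were 2150 bp and 3500 bp. The number of regions chosen ranged from 2286 with no PU.1 centre within 1000 bp to 3401 with centres. Depth is unknown, so what it limits could not be assessed. Pairing was by region only, and no replicate samples could be paired because each group has 1 library.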
